A study of Mus musculus with 7 samples.

Results

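The proteasome subunit genes described here are the 45 genes of 40743 in the deposited table whose symbol begins with Psma, Psmb, Psmc, Psmd, Psme, Psmf or Psmg and ends in a number, without the immunoproteasome genes Psmb8, Psmb9 and Psmb10. The rule used names only. RNA was sequenced from retinal microglia (rMG) sorted as CD45low CD11b+ Cx3cr1GFP/+ Ly6C- Ly6G- cells, in 3 libraries from unlasered mice and 4 libraries from mice 7 days after laser-induced choroidal neovascularisation (CNV). All mice of both groups are labelled Irf8 KO and, by the study's methods, carried the genotype Cx3cr1GFP/+:Irf8-/- on a C57BL/6J background devoid of the Crb1 mutation, which lasered and unlasered libraries share. The study describes the unlasered mice as adult, and an exact age of the mice sequenced is not given in the sources used here. Each library held on average 10000 cells pooled from 3 to 4 mice, and lasered eyes received 3 to 6 laser spots. For lasered mice only the central 70% of the retina was used, so laser injury and the retinal region cannot be told apart. Wild-type libraries were not analysed here. The comparison asks whether the transcripts of the proteasome differed in rMG after laser injury.

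The 26S proteasome degrades proteins that carry ubiquitin chains. Its core particle is a barrel of alpha rings, which gate the entrance, and beta rings, in which Psmb5, Psmb6 and Psmb7 encode the constitutive catalytic subunits. A regulatory particle of a base, with ATPases that unfold the substrate, and a lid, which removes ubiquitin, caps the barrel, and dedicated chaperones put both particles together. Alternative caps such as PA28 (Psme1 and Psme2) replace the regulatory particle. In myeloid cells, interferons induce PA28 and the immunoproteasome subunits, while loss of proteasome function induces subunit genes through the transcription factor encoded by Nfe2l1.

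Libraries held between 20427558 and 45919042 reads, and levels are given as CPM, read counts scaled to an equal total in every library. Irf8 was read, only together with Gm20388, at 489 to 530 CPM in the 3 unlasered libraries and 463 to 582 CPM in the 4 lasered ones, so the groups are named by their label, Irf8 KO, throughout. Microglia markers summed to between 17468 and 23287 CPM in the 7 libraries. Rod photoreceptor genes summed to 2251, 20191 and 5780 CPM in unlasered libraries 1 to 3 and to between 321 and 1020 CPM in the 4 lasered libraries, and 14 of the 15 passed an adjusted p under 0.05 as lower after laser injury (limma), where 3.07% of all tested genes did. Monocyte and neutrophil genes summed to between 11.5 and 176 CPM, with overlapping groups. Of the 3 tested genes of this list, Ccr2 had 5.63, 6.37 and 14.2 CPM in the unlasered and 81.5, 128, 19.7 and 7.57 CPM in the lasered libraries (log2 fold change 2.03, SE 0.83, adjusted p = 0.186 from limma), while Plac8 and S100a8 had log2 fold changes of -0.88 and -0.07. Mueller glia genes summed to a mean of 587 CPM in the 3 unlasered and 303 CPM in the 4 lasered libraries, and 0 genes of this list were called. Cone genes summed to 256, 876 and 194 CPM in unlasered libraries 1 to 3 and to between 233 and 251 CPM in lasered libraries. By this sum only unlasered library 2 stood apart, and 0 of the 6 genes were called. Outside that library the sum was mostly Pde6h, whose log2 fold change was -0.007. Opn1mw, Arr3 and Pde6c, at low levels, were lower in every lasered library than in all 3 unlasered ones. They are 50% of the list, beside 10.7% of all tested genes. The list had a median log2 fold change of -1.98, and 4 of 6 had an unadjusted p under 0.05 (limma). The part of other cells in the values below was not tested. In such bulk libraries fewer cells of a type and less RNA per cell cannot be told apart.

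None of the proteasome subunit genes passed the test between lasered and unlasered rMG. With limma on log2(CPM + 1) and Benjamini-Hochberg adjustment, 0 of 44 tested members had an adjusted p under 0.05, higher or lower, where 3.86% of all 17496 tested genes were higher and 3.07% were lower after laser injury. At an unadjusted p under 0.05 there were 2 members, Psmd7 and Psme1, against 22.7% of all tested genes. edgeR and DESeq2 on the recovered reads likewise called 0 members, and each had 2 members at an unadjusted p under 0.05. Groups did not overlap for 1 member that was higher in every lasered library, Psme1, where 10.4% of all tested genes were, and for 1 that was lower, Psmd7, where 10.7% were. Of the 44 log2 fold changes, 19 lay above 0 and 25 below, with a median of -0.01, beside -0.01 for all tested genes.

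The intervals bound the size of a difference that could have been missed. The 95% confidence interval of the log2 fold change lay between -1 and 1 for 43 of 44 members, and for 72.7% of all tested genes. The exception was Psme4. Standard errors of the members ranged from 0.12 to 0.31 on the log2 scale. The summed CPM of all 45 members was 3795, 3843 and 3060 in unlasered libraries 1 to 3 and 3479, 3711, 3586 and 3386 in lasered libraries 1 to 4. The unlasered mean of 3566 ± 439 CPM (SD, n = 3) and the lasered mean of 3540 ± 140 CPM (SD, n = 4) differed by less than either SD. Unlasered libraries 1 and 2 lay above all 4 lasered libraries and unlasered library 3 below them, so the near-equal means depended on library 3. All p-values measure the spread between these pooled libraries.

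The promoters of members were searched for motifs of factors known to act on proteasome or interferon genes. Windows from 250 bases before to 50 after the start (RefSeq, GRCm38.p6) were at hand for 37 of 45 members, 40 windows in all, and both strands were read. The ETS motif CCGGAAG lay in 15 of the 40 windows, 37.5%, against 8.86% of 32851 windows of all genes. The antioxidant response element core TGACNNNGC lay in 6 windows, 15% against 12.4%, and the interferon-stimulated response element core GAAANNGAA in 7, 17.5% against 8.56%. The CCAAT box (CCAAT) lay in 13, 32.5% against 37.4%, and the ETS-IRF composite GGAANNGAA, a type of site that Irf8 is known to bind with an ETS partner, in 2, 5% against 8.24%. These matches are descriptions of letters and not of binding.

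The windows shown hold motifs and belong to the member higher in every lasered library (Psme1), to the catalytic genes Psmb5 and Psmb6, and to Psme4. Psme4 was the member with the widest spread. Psmd7, lower in every lasered library, and the catalytic gene Psmb7 had no match in the windows at hand and are not shown. In Psme1 (chr14:55578244-55578543, plus strand) the capitals mark an interferon-stimulated core and an ETS-IRF composite, which overlap on the minus strand just after the start. In Psmb5 (chr14:54617946-54618245, minus strand) and Psmb6 (chr11:70525107-70525406, plus strand) they mark the antioxidant core. In Psme4 (chr11:30771525-30771824, plus strand) they mark the ETS motif and then the antioxidant core on the minus strand.
Psme1: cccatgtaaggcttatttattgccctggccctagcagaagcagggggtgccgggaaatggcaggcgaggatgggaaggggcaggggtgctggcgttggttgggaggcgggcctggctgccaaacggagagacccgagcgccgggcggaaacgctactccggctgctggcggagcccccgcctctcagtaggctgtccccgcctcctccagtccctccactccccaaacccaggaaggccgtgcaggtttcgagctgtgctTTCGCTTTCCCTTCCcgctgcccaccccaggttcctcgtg
Psmb5: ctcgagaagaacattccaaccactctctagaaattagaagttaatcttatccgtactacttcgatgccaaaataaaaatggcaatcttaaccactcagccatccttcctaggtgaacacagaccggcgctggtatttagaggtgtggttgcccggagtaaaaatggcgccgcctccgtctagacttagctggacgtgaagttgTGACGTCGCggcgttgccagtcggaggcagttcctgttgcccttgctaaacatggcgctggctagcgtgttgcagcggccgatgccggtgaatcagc
Psmb6: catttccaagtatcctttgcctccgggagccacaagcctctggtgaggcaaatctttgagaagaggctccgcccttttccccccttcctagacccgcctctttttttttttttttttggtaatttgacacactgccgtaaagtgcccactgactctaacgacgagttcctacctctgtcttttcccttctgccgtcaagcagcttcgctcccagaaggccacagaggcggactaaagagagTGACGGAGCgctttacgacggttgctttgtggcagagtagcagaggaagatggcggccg
Psme4: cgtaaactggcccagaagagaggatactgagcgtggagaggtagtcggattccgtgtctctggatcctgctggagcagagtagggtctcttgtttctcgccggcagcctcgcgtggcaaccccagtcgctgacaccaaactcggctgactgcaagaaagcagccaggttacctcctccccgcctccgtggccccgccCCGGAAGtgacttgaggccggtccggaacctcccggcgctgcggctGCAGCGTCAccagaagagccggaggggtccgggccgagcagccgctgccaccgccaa

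**Figure D1:**
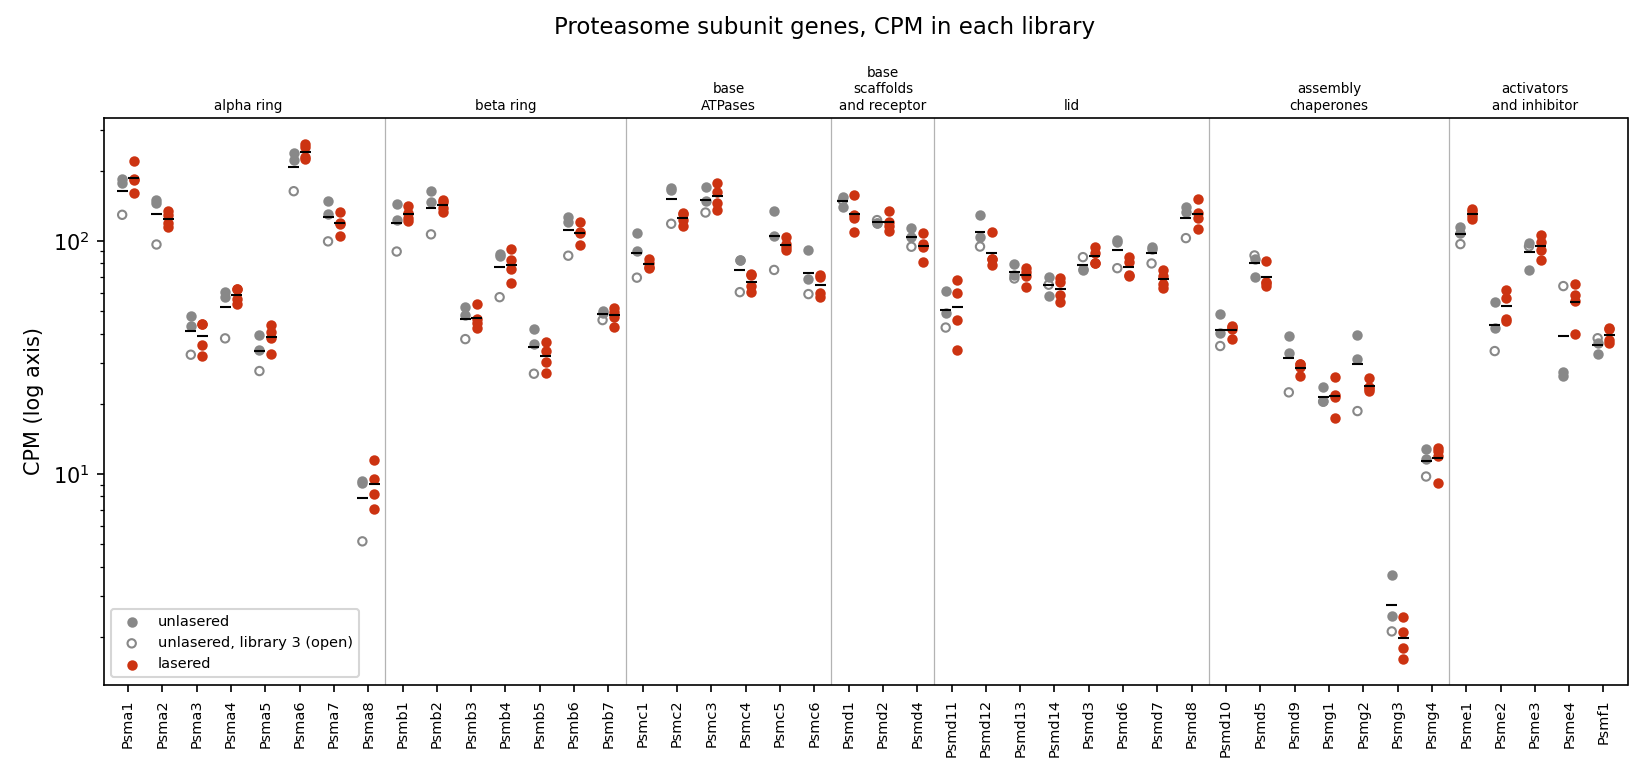
CPM of the 44 tested proteasome subunit genes (log axis) in 3 unlasered libraries (grey, library 3 open) and 4 lasered libraries (red), ordered by structural group, with black lines at group means. Psmb11, at or near 0, is left out, and unlasered library 3 is the lowest of the 7 libraries for 23 of 44 genes.

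Among the alpha ring genes, Psma6 had the highest level per length of all members, 199 CPM per kb of its principal transcript in unlasered and 232 in lasered libraries. Its CPM was 238, 222 and 163 in unlasered libraries and 230, 251, 260 and 225 in lasered libraries. Lasered libraries 2 and 3 lay above every unlasered library, while the other two lay between unlasered libraries 1 and 2, so the groups overlapped. The log2 fold change of Psma6 was 0.23 (SE 0.15, adjusted p = 0.397 from limma), the largest difference in the alpha ring. At the other end, Psma2 measured 150, 146 and 96.4 CPM in unlasered libraries and between 114 and 134 CPM in the 4 lasered libraries (log2 fold change -0.05, SE 0.17). Psma8, known as the alpha subunit of germ cell proteasomes, was the lowest alpha gene at 4.65 CPM per kb in unlasered libraries. It was read at 9.35, 9.14 and 5.14 CPM in unlasered libraries and 9.47, 7.08, 8.21 and 11.4 CPM in the 4 lasered libraries. Over the 8 alpha genes, 0 were called, 5 log2 fold changes lay above 0 and the median was 0.19. Without unlasered library 3, the lowest unlasered library for all 8, the median was -0.03, 3 lay above 0 and that of Psma6 was 0.07. Psma2 had the largest difference of the ring in that fit, with a log2 fold change of -0.25 (SE 0.11).

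The catalytic subunit genes of the beta ring showed no called difference. Psmb5, which encodes the chymotrypsin-like subunit, was read at 36.1, 41.9 and 26.9 CPM in unlasered libraries and at 30.2, 36.6, 27.0 and 33.8 CPM in the 4 lasered libraries. Its values, from the gene whose antioxidant core is printed above, overlapped throughout, with a log2 fold change of -0.12 and an interval from -0.53 to 0.30. Psmb6, the caspase-like subunit, measured 127, 121 and 86.3 CPM in the 3 unlasered and 95.9, 121, 108 and 109 CPM in the 4 lasered libraries. The log2 fold change of Psmb6 was -0.02 (95% interval -0.38 to 0.34). Psmb7, the trypsin-like subunit, varied least of the catalytic genes, with 50.1, 49.1 and 45.7 CPM in the 3 unlasered and 49.6, 47.3, 51.6 and 42.8 CPM in the 4 lasered libraries. Its log2 fold change was -0.02 (95% interval -0.31 to 0.27). Leaving out unlasered library 3 gave log2 fold changes of -0.29 for Psmb5, -0.19 for Psmb6 and -0.06 for Psmb7. The rows of Psmb5 and Psmb7, like those of Psma2, Psmc5 and Psmd14, also hold reads that another gene shares. Per length, Psmb6 stood at 139 CPM per kb in unlasered libraries, against 41.6 for Psmb7 and 38.9 for Psmb5. Rows of pseudogenes, described below, held a further 39.5% of the CPM of Psmb5 and 19.8% of that of Psmb6 in unlasered libraries. Psmb7 had no such row, so these levels depend on where such reads were placed.

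The highest beta gene per length was Psmb2, a structural subunit, with 162 CPM per kb in unlasered and 165 in lasered libraries. The largest difference in the ring was that of Psmb1, another structural subunit, with 122, 144 and 89.9 CPM in the 3 unlasered and 122, 141, 131 and 125 CPM in the 4 lasered libraries (log2 fold change 0.15, SE 0.16). Its lasered values all lay between the unlasered ones, and without unlasered library 3 the log2 fold change was -0.04. Psmb11, the beta subunit known from thymic epithelium, did not reach 1 CPM in any library and was not tested. It had 1, 5 and 3 reads in unlasered libraries and 5, 2, 10 and 3 reads in lasered libraries, near the floor of 3 reads that the depth can show. Of 7 tested beta genes 0 were called, with a median log2 fold change of 0.02, or -0.13 without unlasered library 3.

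The immunoproteasome genes, whose products take the places of the catalytic subunits, were also not called. Psmb8, the counterpart of Psmb5, was read at 105, 91.8 and 78.6 CPM in the 3 unlasered and 129, 171, 98.0 and 98.8 CPM in the 4 lasered libraries (log2 fold change 0.40, SE 0.21, adjusted p = 0.295 from limma), and Psmb9 and Psmb10 had log2 fold changes of 0.11 and 0.07.

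In the base, 5 of the 6 ATPase genes had a log2 fold change below 0, and 0 of 6 were called. Psmc2 had the largest difference of these, with 165, 169 and 118 CPM in the 3 unlasered and 116, 122, 132 and 130 CPM in the 4 lasered libraries. Its lasered values lay under unlasered libraries 1 and 2 but around library 3, and the log2 fold change was -0.25 (SE 0.15, adjusted p = 0.359 from limma). The median over the 6 ATPase genes was -0.15. In the fit without unlasered library 3 all 6 lay below 0, and the median was -0.30. Psmc2 was then at -0.41 (SE 0.10, adjusted p = 0.0536 from limma). Psmc3 was the highest ATPase gene per length, 91.6 CPM per kb in unlasered libraries, and its log2 fold change of 0.05 was the smallest. Psmc6 was the lowest at 32.7 CPM per kb. Of the scaffold genes, Psmd2 varied little, with 119, 119 and 123 CPM in the 3 unlasered and 116, 110, 121 and 135 CPM in the 4 lasered libraries. Its log2 fold change was -0.001 with a 95% interval from -0.26 to 0.26. Psmd1, the other scaffold, measured 140, 154 and 149 CPM in the 3 unlasered and 129, 125, 158 and 109 CPM in the 4 lasered libraries (log2 fold change -0.19, SE 0.14), and Psmd4, a ubiquitin receptor, was the highest of the 3 per length at 78.0 CPM per kb in unlasered libraries.

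The lid held the member with the lowest p-value. Psmd7, a scaffold partner of the deubiquitinase Psmd14 (chromosome 8 of GRCm38, 107580381 to 107588464, minus strand, 7 exons), was read at 93.8, 92.0 and 79.9 CPM in unlasered libraries and at 65.2, 70.6, 62.5 and 75.1 CPM in the 4 lasered libraries. All lasered libraries lay below all unlasered libraries. The log2 fold change was -0.37 (SE 0.13, 95% interval -0.66 to -0.08, unadjusted p = 0.0176, adjusted p = 0.123 from limma), and the adjusted p ranged from 0.0639 to 0.285 over the alternatives. Psmd14 itself measured 70.1, 58.1 and 64.8 CPM in the 3 unlasered and 66.2, 69.0, 58.7 and 54.9 CPM in the 4 lasered libraries. Psmd11 had a log2 fold change of -0.002 although its lasered libraries spread from 34.0 to 67.9 CPM. Psmd8 was the highest lid gene per length at 81.4 CPM per kb in unlasered libraries, and Psmd11 the lowest at 17.8. Over the 8 lid genes 0 were called, 6 log2 fold changes lay below 0 and the median was -0.05. Without unlasered library 3 the median was -0.10 and 7 lay below 0, with Psmd3 above it at 0.18. In that fit Psmd7 was at -0.44, Psmd12 at -0.39 and Psmd6 at -0.37 (adjusted p = 0.0639, 0.170 and 0.104 from limma).

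**Figure D2:**
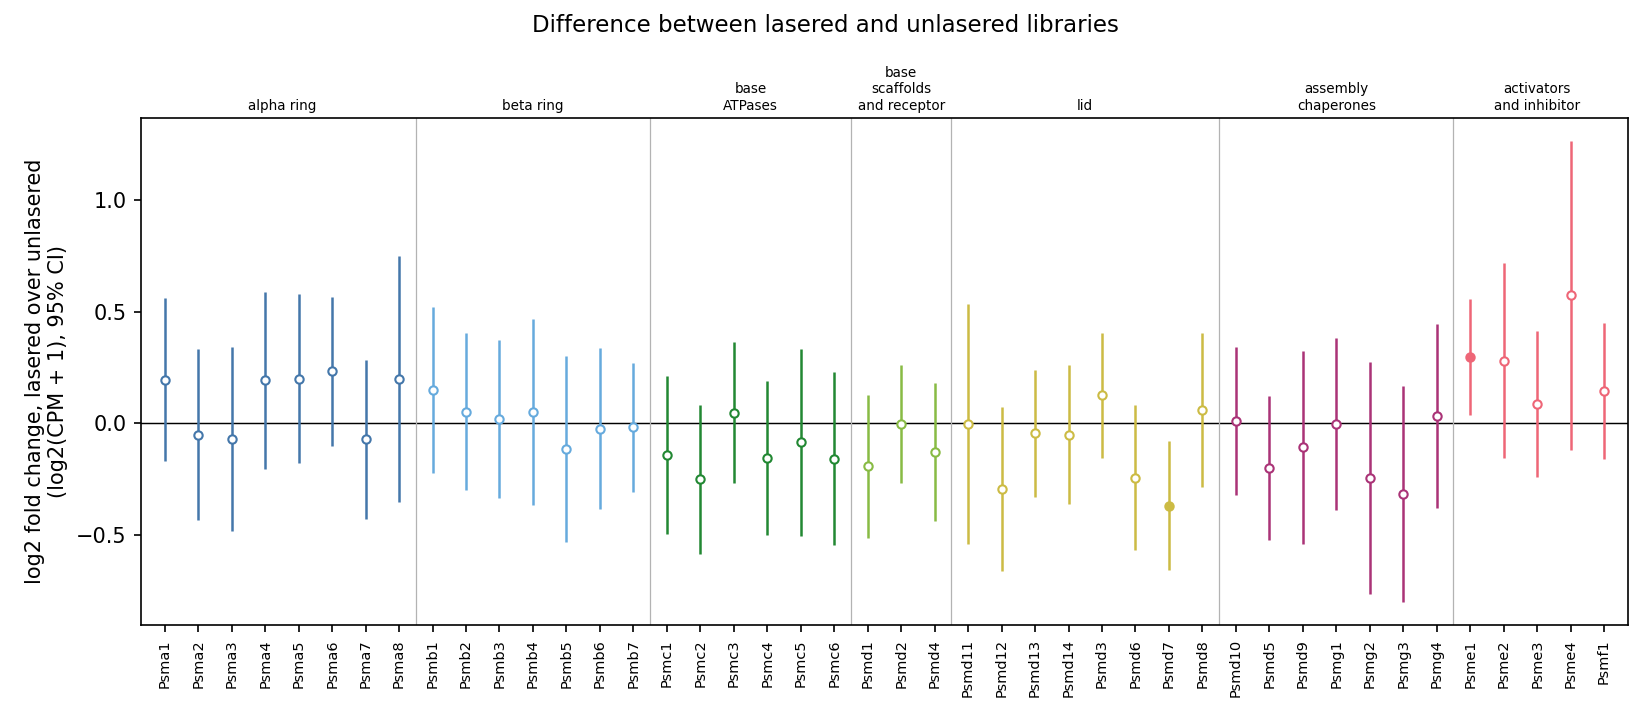
Log2 fold change of lasered over unlasered libraries for the 44 tested members (points) with 95% confidence intervals (lines), by structural group. Filled points mark the 2 genes with an unadjusted p under 0.05, Psmd7 and Psme1, and 42 intervals include 0.

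Of the assembly chaperone genes, 0 of 7 were called. Psmg3, a partner of Psmg4 in building the alpha ring, had the largest difference, with 3.67, 2.45 and 2.11 CPM in the 3 unlasered and 1.61, 2.09, 1.79 and 2.42 CPM in the 4 lasered libraries (log2 fold change -0.32, SE 0.21). Its row holds only a part of its reads, since others were listed jointly under Gm26938, an overlapping gene. The row of Gm26938, which also holds reads of its own, averaged 20.3 CPM in the 3 unlasered and 17.8 CPM in the 4 lasered libraries. Psmg1 had the smallest difference (log2 fold change -0.002, interval -0.39 to 0.38). In the fit without unlasered library 3 all 7 lay below 0, and Psmg2 had the largest difference, beside -0.44 for Psmg3. Psmg2 went from a log2 fold change of -0.24 in the main fit to -0.54 there (SE 0.15, adjusted p = 0.0693 from limma). Psmd10, which holds an ATPase during base assembly, was the highest per length at 28.9 CPM per kb in both groups.

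All 5 log2 fold changes of the activator and inhibitor genes lay above 0, and 0 were called. Psme1, the alpha subunit of PA28 (chromosome 14, 55578123 to 55581529, plus strand, 11 exons), was read at 109, 114 and 96.8 CPM in unlasered libraries and at 134, 137, 125 and 128 CPM in the 4 lasered libraries. All lasered libraries lay above all unlasered libraries. The window printed above holds both interferon-related motifs and follows the RefSeq start of Psme1, which lies downstream of the GENCODE start given here. Psmc2, with a log2 fold change of -0.25, was the other member with both motifs. The log2 fold change was 0.30 (SE 0.12, 95% interval 0.04 to 0.56, unadjusted p = 0.0291, adjusted p = 0.161 from limma), with adjusted p from 0.0935 to 0.337 over the alternatives. Psme2, the PA28 beta subunit, had 54.7, 42.2 and 33.6 CPM in the 3 unlasered and 57.0, 61.8, 46.0 and 45.4 CPM in the 4 lasered libraries. The groups of Psme2 overlapped (log2 fold change 0.28, SE 0.19, adjusted p = 0.439 from limma), and its log2 fold change was 0.11 without unlasered library 3. Psme3, which encodes the nuclear PA28 gamma, had a log2 fold change of 0.09, and Psmf1, the inhibitor PI31, of 0.14. Psme2b was listed only jointly with another gene and is not analysed here.

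Psme4, which encodes the nuclear activator PA200 (chromosome 11, 30771726 to 30880361, plus strand, 47 exons), was split within the unlasered group. Its level was 26.3 and 27.2 CPM in unlasered libraries 1 and 2 and 63.9 CPM in library 3, beside 65.1, 55.3, 58.8 and 39.8 CPM in the 4 lasered libraries. Unlasered library 3 lay within the range of the lasered libraries. The log2 fold change was 0.57 (SE 0.31, adjusted p = 0.310 from limma). Without unlasered library 3 it was 0.98 (adjusted p = 0.0326 from limma), the only member called under any alternative, and its adjusted p ranged from 0.0326 to 0.630. Psme4 was also the lowest activator gene per length, 6.03 CPM per kb in unlasered libraries, against 95.8 for Psme1.

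The spread among unlasered libraries was shared by most members. Unlasered library 3 was lower than both other unlasered libraries for 36 of 44 members, beside 38.2% of all tested genes. This held for all 8 alpha, all 7 tested beta and all 6 ATPase genes, for 6 of 8 lid genes and for 2 of 5 activator and inhibitor genes. Relative to each gene's mean over 7 libraries, the median member stood at -0.22 (log2) in unlasered library 3, at 0.13 and 0.12 in unlasered libraries 1 and 2, and between -0.06 and 0.09 in the lasered libraries. Without library 3 the median log2 fold change of the members was -0.12, and 9 members, or 20.5%, had an unadjusted p under 0.05, beside 28.1% of all genes tested in that fit.

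The low values of library 3 went with short transcripts. All 22 members with a principal transcript under 1.5 kb were lowest in library 3 among the unlasered libraries, as were 62.9% of the 5024 tested genes of that length. Of the 18 members from 1.5 to under 3 kb, 14 were, beside 40.6% of all tested genes of that length. None of the 4 members of 3 kb or more was (0 of Psmd1, Psmd5, Psme4 and Psmf1), beside 16.9% of such genes. The median difference of library 3 from libraries 1 and 2 was -0.46 (log2) for members under 1.5 kb and -0.26 for all tested genes of that length. Microglia markers in library 3, at 22510 CPM, lay within the range of the other libraries. The part of transcript length in these values was not tested.

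**Figure D3:**
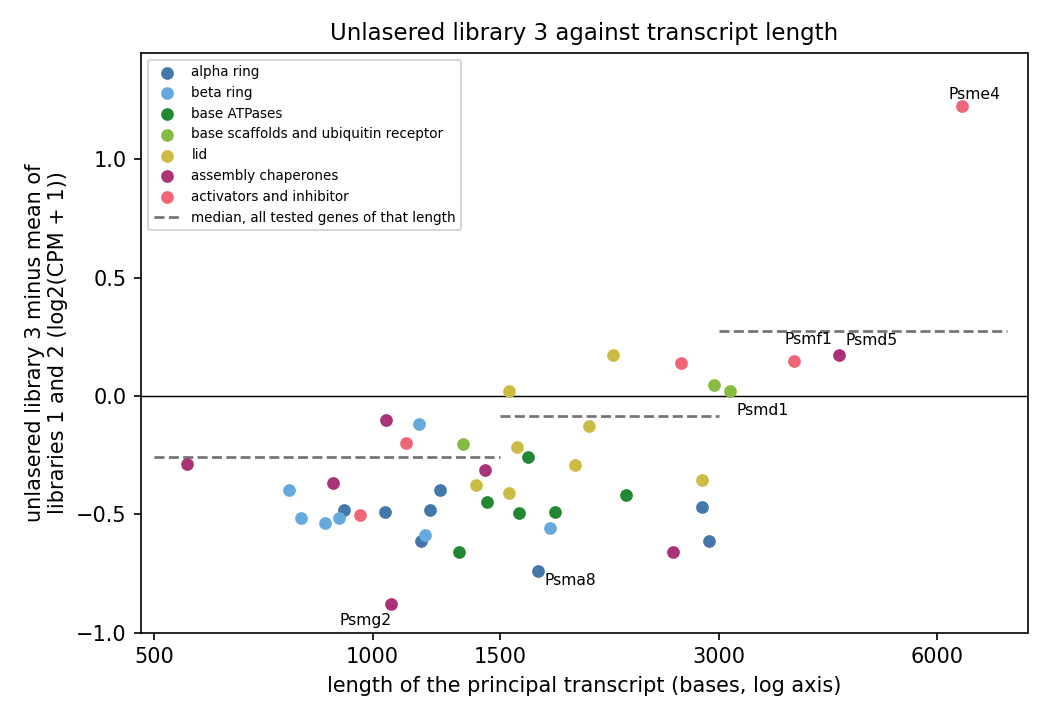
Difference of unlasered library 3 from the mean of unlasered libraries 1 and 2 (log2(CPM + 1)) against the length of the principal transcript (bases, log axis) for 44 members, coloured by structural group. Dashed lines are medians of all tested genes under 1.5 kb, from 1.5 to under 3 kb and from 3 kb; members under 1.5 kb all lie below 0 and Psme4 lies highest.

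Proteasome genes have processed copies elsewhere in the genome, and reads on these were counted in rows of their own. In GENCODE M21, 29 annotated pseudogenes had a member as their closest coding transcript, and 22 of them had rows of their own, for 13 members, with 90.3% to 98.9% identity over the aligned stretch. The 2 pseudogenes closest to Psma5 together had 53.2 CPM in unlasered libraries, 158% of the 33.7 CPM of Psma5 itself, and 149% in lasered libraries. For Psmd2, Psmb3 and Psma3 the copies had 50.2%, 49.8% and 47.3% of the gene's CPM in unlasered libraries, and 52.2%, 51.2% and 51.6% in lasered libraries. How many of these reads came from the parent transcripts was not tested. Of 19 copies tested 0 were called, beside 3.86% of all tested genes called higher and 3.07% called lower. An unadjusted p under 0.05 (limma) was found for 0 of the copies, beside 22.7% of all tested genes.

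The copy of Psme1, Gm7776, was read at 33.8, 33.3 and 24.0 CPM in unlasered libraries and at 38.2, 38.2, 39.0 and 34.6 CPM in the 4 lasered libraries, again without overlap, with a log2 fold change of 0.31 (SE 0.16, adjusted p = 0.29 from limma). It was the only 1 of the 19 tested copies to be higher in every lasered library, where 10.4% of all tested genes were. Gm7776 was singled out after its values were seen. With the reads of the copies added to their parents, 0 members were called.

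**Figure D4:**
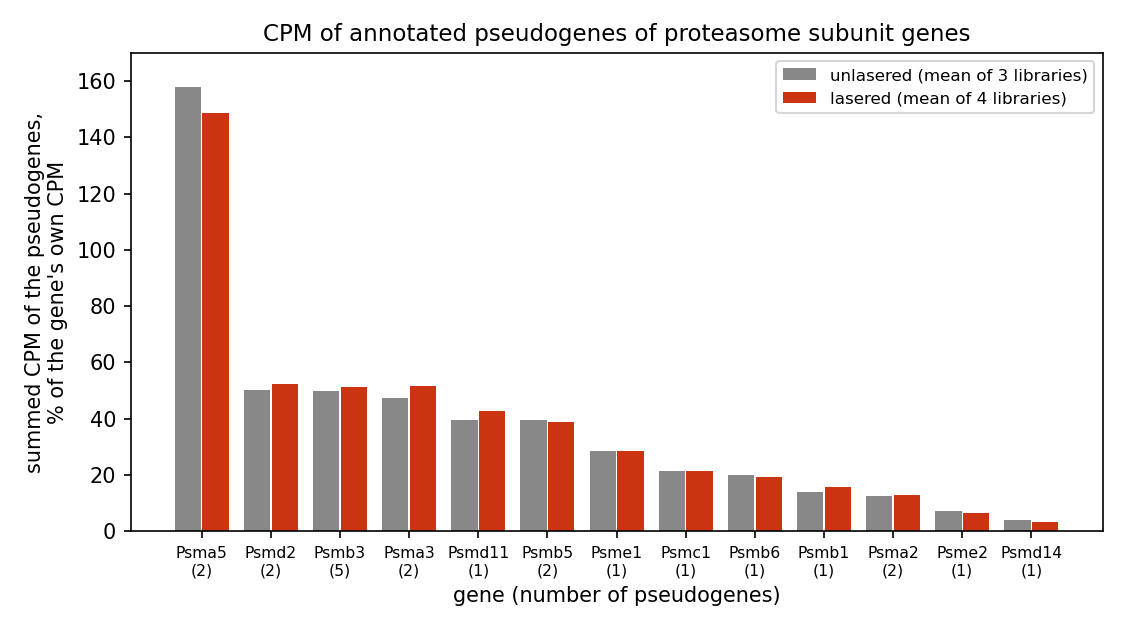
Summed CPM of annotated pseudogenes as a percentage of the CPM of the closest proteasome gene, for 13 genes, as means of 3 unlasered (grey) and 4 lasered (red) libraries; the number of pseudogenes is in brackets. Only Psma5 lies above 100%.

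Psmd13, a lid gene, had 71.1, 79.7 and 68.9 CPM in the 3 unlasered and 76.5, 73.6, 70.5 and 63.7 CPM in the 4 lasered libraries (log2 fold change -0.04, SE 0.13). Gm15542, a processed pseudogene inside the span of Psmd13 that was listed only jointly with it, had 59.8, 58.5 and 48.1 CPM in the 3 unlasered and 42.3, 41.3, 35.2 and 35.7 CPM in the 4 lasered libraries. All lasered values of Gm15542 lay below the unlasered ones (log2 fold change -0.51, adjusted p = 0.0694 from limma). Its closest coding transcript was not Psmd13 but Dnaja1, a co-chaperone of Hsp70, with 99.4% identity over 1194 bases. Dnaja1 was read at 86.7, 94.0 and 87.2 CPM in the 3 unlasered and 71.1, 65.1, 59.6 and 57.8 CPM in the 4 lasered libraries (log2 fold change -0.49, SE 0.13, adjusted p = 0.0499 from limma). Adding the joint row to Psmd13 would move its log2 fold change to -0.23 (adjusted p = 0.310 from limma). Both rows were chosen after their values were seen.

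Partners, regulators and the ubiquitin genes around the proteasome gave 1 call among 29 tested genes, a share near the 3.86% of all tested genes that were higher after laser injury. Maff, a small Maf protein that pairs with the Nfe2 family, was read at 1.32, 0.438 and 0.472 CPM in unlasered libraries and 2.72, 3.94, 2.40 and 1.94 CPM in the 4 lasered libraries. It was higher in all 4 lasered libraries than in the unlasered ones (log2 fold change 1.11 on the log2(CPM + 1) scale, SE 0.26, adjusted p = 0.0374 from limma), with adjusted p from 0.00585 to 0.124 over the alternatives, among them 0.0986 without unlasered library 2, 0.0742 without unlasered library 3, and 0.0927, 0.0975 and 0.0788 without lasered libraries 1, 2 and 3. At these low levels the size of the difference depended on the scale, with log2 fold changes of 1.86 at a pseudocount of 0.1 CPM, 1.92 in edgeR and 1.92 in DESeq2. The other small Maf genes, Mafg and Mafk, had log2 fold changes of 0.11 and 0.32 and were not called. Nfe2l2, a regulator of antioxidant and proteasome genes, measured 614, 574 and 611 CPM in the 3 unlasered and 473, 453, 510 and 515 CPM in the 4 lasered libraries. All lasered libraries lay lower, but the log2 fold change of -0.30 was not called (SE 0.10, adjusted p = 0.123 from limma).

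Nfe2l1, which restores subunit expression when the proteasome is impaired, was read at 60.9, 72.5 and 120 CPM in the 3 unlasered and 65.7, 60.2, 56.2 and 89.7 CPM in the 4 lasered libraries, with overlapping groups (log2 fold change -0.27, SE 0.25). Pomp, the maturation factor of the core particle, measured 148, 146 and 92.0 CPM in the 3 unlasered and between 123 and 130 CPM in the 4 lasered libraries (log2 fold change 0.01, SE 0.17). Pomp was lowest in unlasered library 3. Of the 11 partner genes 0 were called, and of the 10 tested genes for ubiquitin, its activation and shuttling 0 were called.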

How the data were processed

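RNA-seq values of 7 libraries were analysed. According to the study's methods and the submitters' processing notes, the authors trimmed reads with cutadapt, removed duplicates, mapped them to the mouse genome (GRCm38) by Bowtie2, and used HTSeq and annotation version 90 for the gene counts. The deposited values are headed TPM but are CPM: every value of a library is a whole multiple of 1 step, and whole reads were recovered for 100% of values (within 0.01 reads). Bowtie2 does not splice reads, so reads over exon junctions can be lost or placed on processed copies. Reads shared by overlapping genes were listed jointly, and deposited rows were used as they stand. The floor of 3 reads was 0.0653 to 0.147 CPM (counting error only).

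The comparison used limma 3.58.1 (R 4.3.3, trend and robust options) on log2(CPM + 1), over the 17496 genes that reached 1 CPM in 3 or more libraries. Tests were two-sided, p-values were adjusted over all genes by Benjamini-Hochberg, and a call is an adjusted p under 0.05. edgeR 4.0.16 and DESeq2 1.42.0 were run on the recovered reads as alternatives. Other alternatives were the pseudocount, filters, median-of-ratios scaling, a replicate block and leaving out each library. Joint rows, copies and totals without Apoe and rod genes were added after seeing the data. Coordinates and principal transcripts came from GENCODE M21 (GRCm38). Copies were found with BLAST+ 2.17.0 (at least 200 bases, 90% identity and 50% of the pseudogene). Tables and plots were made with matplotlib 3.10.9, scipy 1.17.1, numpy 2.4.6 and pandas 2.3.3 in Python 3.11.15.

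Named genes are called members, those with the largest and smallest difference and the highest and lowest level per length in each structural group, the catalytic, activator and inhibitor genes, untested members, the immunoproteasome genes, called partners, and Nfe2l1, Nfe2l2 and Pomp. Members and lists were chosen with earlier results of these data known. Columns of per-sample values not used numbered 0. No genes were left out of the totals.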

Additional observations from a re-analysis of the deposited data

Results flagged for a closer look

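In the 4 lasered libraries, 2 of 56 levels checked had a single library far from the other 3 by Dixon's test, where chance gives about 1 in 20 groups. Psmd12, a lid gene, was highest in lasered library 3 with 109.5 CPM, beside 78.7 to 83.5 CPM in the others. Psmd5, a chaperone of the base, was highest in lasered library 4 with 82.1 CPM, beside 63.8 to 66.6 CPM in the others. Neither gene was called between the groups (limma, adjusted p = 0.323 for Psmd12 and 0.457 for Psmd5).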

How the results depend on the processing

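The count of called members was 0 in each direction under the alternatives, apart from 1 higher gene (Psme4) without unlasered library 3, so it ranged from 0 to 1 over the fits that leave out a library. Of 746 member fold changes under the alternatives 739 kept their side of the threshold and, or within 1 standard error, their direction, 6 changed sign by more than 1 standard error without a call (Psmc5 without unlasered library 2, and Psma4, Psma8, Psmb1, Psmb2 and Psmb4 without unlasered library 3), and 1 was newly called. The median log2 fold change of the members ranged from -0.12 to 0.07. Over all tested genes, 676 were higher and 537 lower. Without a filter there were 212 and 173, with at least 10 CPM in 3 libraries 161 were lower, and with DESeq2 1177 were higher and 1141 lower. Leaving out a library gave 150 to 815 higher and 114 to 433 lower genes. With a replicate block 2 were higher and 1 lower, and 0 members were called. Deviations of same-numbered libraries correlated at -0.18, -0.13 and -0.02 across genes, beside -0.11 to 0.21 for differently numbered ones. With so few libraries these values cannot decide whether the numbers pair the libraries, and no source used here says that they do. Maff was not called without a filter (adjusted p = 0.087 from limma) or with the block. Rps27a was called with median-of-ratios scaling (adjusted p = 0.0433 from limma) and by DESeq2, and Akirin2 by DESeq2 (adjusted p = 0.0299) and without unlasered library 3 (adjusted p = 0.0482 from limma). Counting only reads of a gene's own entries was not run, since rows merge the entries.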

Other observations

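Among partner genes not described above, Akirin2, which carries proteasomes into the nucleus, was read at 58.8, 52.2 and 45.6 CPM in unlasered and 39.2, 40.4, 36.3 and 34.7 CPM in lasered libraries. All lasered values lay below the unlasered ones, with a log2 fold change of -0.45 (SE 0.14, adjusted p = 0.0911 from limma). Zfand2a, a stress-induced partner of the regulatory particle, measured 15.1, 35.2 and 29.0 CPM in unlasered and 44.6, 36.3, 40.0 and 42.9 CPM in lasered libraries. Its lasered libraries were all higher (log2 fold change 0.69, SE 0.26, adjusted p = 0.148 from limma). Rps27a, which encodes ubiquitin fused to a ribosomal protein, had 27.0, 24.9 and 17.4 CPM in unlasered and 39.1, 41.3, 40.1 and 29.1 CPM in lasered libraries, again without overlap (log2 fold change 0.68, SE 0.20, adjusted p = 0.0734 from limma). Zfand5, another partner of the proteasome, measured 197, 189 and 196 CPM in the 3 unlasered and 147, 145, 188 and 174 CPM in the 4 lasered libraries, all of them lower (log2 fold change -0.25, SE 0.13, adjusted p = 0.281 from limma). Over the 29 tested partner, regulator and ubiquitin genes, 3 were higher in every lasered library and 3 were lower, 10.3% each, beside 10.4% and 10.7% of all tested genes. These genes were chosen after their values were seen.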
